A study of Mus musculus with 8 samples.

Results

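The genes described here characterise naive and circulating T cells and were followed in mouse splenic T cells: S1pr1, Il7r, Ly6c1, Dapl1, Tcf7, Lef1 and Satb1. They are 7 of the 15138 genes tested on these arrays. A probe belonged to a member when its RefSeq transcript did, and of several probes the one with the highest mean log2 signal over the 8 arrays was used. All 7 passed the filter on dim probes, and each chosen probe was well above background on all 8 arrays.

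The arrays carried total RNA of splenic T cells from Lsp1-deficient mice (Lsp1-/-, called KO) and from wild-type mice (Lsp1+/+, called WT). The Lsp1 protein binds actin filaments in leukocytes, and the study's title links it to T cell migration in rheumatoid arthritis. There were 4 groups of 2 arrays: KO stimulated with anti-CD3/CD28 antibodies for 6 h, WT stimulated in the same way, KO in medium, and WT in medium. Both genotypes were on the C57BL/6 background, the deficient line after backcrossing to generation 10, and mice were, with exceptions the labels allow for, aged 8 to 12 weeks, with controls of the same age and sex. The labels name no deletion limited to T cells. They also do not say how T cells were purified, or whether both arrays of a group stand for separate animals, so p-values measure only the spread among these samples, and that spread may be technical.

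A naive T cell circulates between blood and lymphoid organs until it meets its antigen. S1PR1 senses sphingosine 1-phosphate and lets T cells leave lymphoid organs, interleukin-7 keeps them alive through IL7R, and TCF-1 (from Tcf7) and LEF-1 are related transcription factors that hold the naive and stem-like programme. SATB1 organises chromatin in thymocytes and T cells. Ly6c1 encodes a GPI-anchored surface protein of the Ly6 family found on many memory and some naive T cells in the mouse, and Dapl1 transcript marks naive T cells there. Antibodies against CD3 and CD28 engage the T cell receptor complex and its costimulatory receptor.

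Promoter windows are shown for 3 of the genes with lower signal after stimulation. Their windows held motifs of factors that are known to act in naive T cells. RefSeq windows of build GRCm38.p6, from 250 bases before to 50 bases after an annotated start, were listed for 6 of the 7 members. Capitals mark each match: GTAAACA (FOXO), TTCNNNGAA (STAT), TGTGGTT (RUNX), CCGGAAG (ETS) and CCACCC (KLF), searched on both strands, so that an ETS or KLF match on the other strand reads CTTCCGG or GGGTGG. The Dapl1 window is chr2:59484403-59484702 on the plus strand, that of Tcf7, the second of its 2 windows, is chr11:52282546-52282845 on the minus strand, and that of Il7r is chr15:9529827-9530126 on the minus strand. Each is written 5′ to 3′ along its gene. The second Tcf7 window lies downstream of the first along the gene, so its start is not the first annotated start of Tcf7.
Dapl1: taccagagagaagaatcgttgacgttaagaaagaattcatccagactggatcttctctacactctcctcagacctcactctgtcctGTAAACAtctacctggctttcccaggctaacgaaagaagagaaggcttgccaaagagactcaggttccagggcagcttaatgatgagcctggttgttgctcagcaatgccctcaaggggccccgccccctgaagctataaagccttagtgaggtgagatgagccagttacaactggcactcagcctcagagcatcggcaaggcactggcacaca
Tcf7: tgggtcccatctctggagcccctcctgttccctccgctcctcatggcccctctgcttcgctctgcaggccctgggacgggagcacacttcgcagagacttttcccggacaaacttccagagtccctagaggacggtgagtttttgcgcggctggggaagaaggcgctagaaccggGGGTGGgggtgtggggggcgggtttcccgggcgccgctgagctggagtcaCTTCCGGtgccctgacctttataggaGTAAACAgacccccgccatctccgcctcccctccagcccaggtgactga
Il7r: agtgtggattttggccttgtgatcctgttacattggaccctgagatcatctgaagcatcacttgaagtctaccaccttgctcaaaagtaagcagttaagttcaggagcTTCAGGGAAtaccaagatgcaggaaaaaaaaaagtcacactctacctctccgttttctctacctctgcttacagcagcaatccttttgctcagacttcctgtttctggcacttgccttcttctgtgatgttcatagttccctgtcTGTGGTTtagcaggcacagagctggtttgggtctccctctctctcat
The FOXO letters began at position -164 from the start in Dapl1 and at position 1 in Tcf7. The Tcf7 window also held a KLF match at -75 and an ETS match at -25, and the Il7r window a STAT match at -142 and a RUNX match at 3. FOXO letters occur in 3.65% of 32851 promoter windows of the same length in the table, STAT letters in 8.3%, RUNX letters in 5.27%, ETS letters in 8.86% and KLF letters in 31.5%. KLF letters were also found in windows of Ly6c1, Lef1 and Satb1, which are not printed, although Lef1 had lower signal after stimulation too. CTTTGAA (TCF/LEF, in 5.14% of all windows) and the gapped IRF and NF-κB motifs (in 3.44% and 1.63%) were not matched in any of the members' windows. The windows searched were 1 for Il7r, 1 for Dapl1, 2 for Ly6c1, 2 for Tcf7, 4 for Lef1 and 5 for Satb1. The first Tcf7 window held no match, nor did some windows of Ly6c1, Lef1 and Satb1. Because the printed windows were picked for their matches, the shares over all windows are no test of them. These matches are descriptions of the letters in the windows.

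Values are log2 of the processed spot intensity minus the 75th percentile of that array. Levels are compared between arrays for one probe and never between probes. Lsp1, the gene that was deleted, was read first. It measured 3.69 and 3.65 on the KO stimulated arrays, 7.06 and 6.99 on the WT stimulated arrays, 3.64 and 3.48 on the KO medium arrays, and 7.48 and 7.24 on the WT medium arrays. KO was lower than WT by a log2 difference of -3.35 ± 0.13 after stimulation (limma, adjusted p = 0.00268) and -3.79 ± 0.13 in medium (limma, adjusted p = 0.00127), so all 4 KO arrays matched their labels. The ± here and below is the standard error of a fit to 4 group means over 8 arrays, except for values without both KO replicate 2 arrays. Those come from a fit to the remaining arrays, with 1 array in each KO group. Their ± thus holds no spread among KO arrays, only that of the WT pairs. All 15 of 15 T cell markers, among them Cd3e, were well above background on every array. The 8 arrays shared 1 slide and 1 scan.

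The 2 KO arrays numbered replicate 2 stood apart from their partners in marker genes of other cells. The summed scaled signal of 13 of 15 neutrophil and precursor markers was 446 on KO stimulated replicate 2 and 785 on KO medium replicate 2, against 152 and 192 on the replicate 1 arrays of those groups, and 146, 144, 256 and 172 on the WT arrays. Elane, neutrophil elastase, measured 5.13 and 6.36 on the KO replicate 2 arrays, stimulated and medium, against 2.29 and 2.92 on the KO replicate 1 arrays. Mpo, myeloperoxidase, measured 6.67 and 7.63, against 3.61 and 4.49 on the same pairs of arrays. In both KO conditions 12 of the 13 markers were higher on replicate 2. Csf3r went the other way, at 6.63 and 6.76 on the KO replicate 2 arrays against 6.97 and 7.17 on the KO replicate 1 arrays. It had the strongest signal of the list on the KO replicate 1 and WT arrays, so it weighs on their sums. Summed T cell markers were 847 and 828 on the KO replicate 2 arrays, against 961 and 1121 on the KO replicate 1 arrays. The part of these arrays' other cells in the results was not tested, and the members' values and the list counts are also given without both KO replicate 2 arrays.

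Stimulation for 6 h lowered the signals of S1pr1, Il7r, Dapl1, Tcf7 and Lef1 and raised those of Ly6c1 and Satb1 when both genotypes were averaged. S1pr1 fell the most, to 2.56-fold below medium, and Ly6c1 rose 2.49-fold. For all 7 genes every stimulated array lay outside the range of the medium arrays, in KO alone, in WT alone and over both genotypes. Of all genes with values on the arrays compared, 51.4% did not overlap in KO, 69.6% did not overlap in WT and 31.6% did not overlap over 4 arrays against 4. Averaged over genotypes, 5 of the 7 were called lower, where 12.3% of all genes were, and 2 were called higher, where 12.2% of all genes were (limma, Benjamini-Hochberg adjusted p below 0.05). The members' median log2 fold change was -0.97, against -0.08 over all genes tested. In the same comparison the 13 neutrophil and precursor markers had a median of -0.86, with 12 of 13 below 0 and 0 called (-0.76, with 2 called lower, without both KO replicate 2 arrays). Their median was -0.88 in KO alone and -0.68 in WT alone. Of 10 natural killer cell markers 3 were called lower and 2 higher. The part of these cells in the members' changes was not tested. The averaged comparison uses the same arrays as the comparisons within a genotype, so it is no separate evidence. The 7 members were chosen with earlier results of these data known. Their counts and median beside those of all genes, here and below, are therefore a description and no test.

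**Figure D1:**
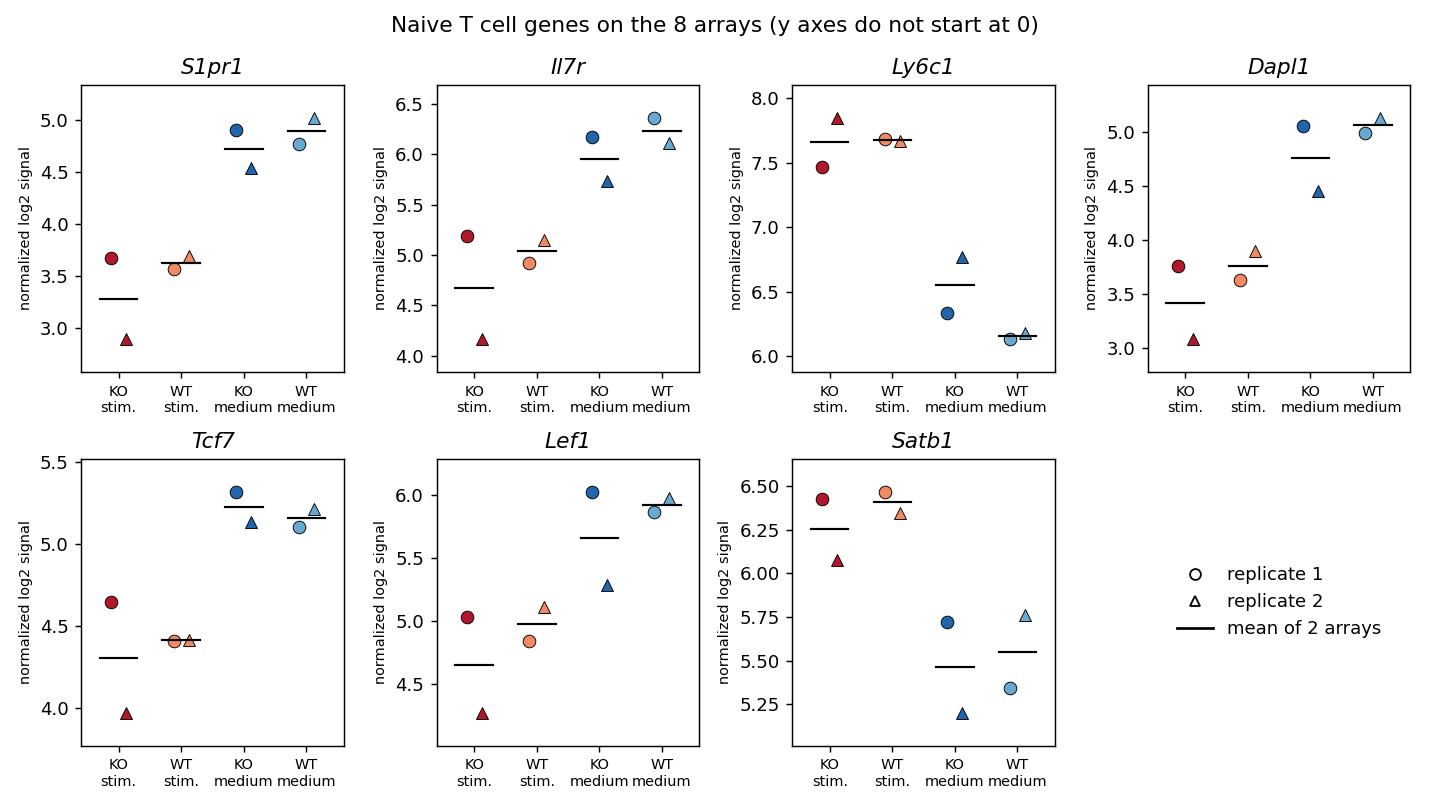
Normalized log2 signal (y axis) of the 7 genes on the 8 arrays, with groups along the x axis, circles for replicate 1, triangles for replicate 2 and a bar at the mean of 2 arrays. S1pr1, Il7r, Dapl1, Tcf7 and Lef1 are lower on all stimulated arrays than on all medium arrays, Ly6c1 and Satb1 higher. The KO stimulated replicate 2 array is the lowest of all 8 for S1pr1, Il7r, Dapl1, Tcf7 and Lef1.

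S1pr1, the receptor for exit from lymphoid organs, measured 3.67 and 2.89 on the KO stimulated arrays and 3.56 and 3.69 on the WT stimulated arrays, against 4.91 and 4.54 on the KO medium arrays and 4.77 and 5.02 on the WT medium arrays. All 4 stimulated arrays were below all 4 medium arrays, and KO stimulated replicate 2 was the lowest. The log2 fold change was -1.44 ± 0.28 in KO (limma, adjusted p = 0.0322) and -1.27 ± 0.28 in WT (limma, adjusted p = 0.0423). Averaged over genotypes it was -1.36 ± 0.20 (limma, adjusted p = 0.00646). Without both KO replicate 2 arrays the averaged value was -1.25 ± 0.12 (limma, adjusted p = 0.00861).

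Il7r, the interleukin-7 receptor α chain, measured 5.18 and 4.17 on the KO stimulated arrays and 4.92 and 5.15 on the WT stimulated arrays, against 6.17 and 5.74 on the KO medium arrays and 6.36 and 6.11 on the WT medium arrays. All stimulated arrays were below all medium arrays, and the KO stimulated pair were the farthest apart of any pair of the 7 genes. Stimulation changed Il7r by -1.28 ± 0.34 in KO and -1.20 ± 0.34 in WT, and neither passed (limma, adjusted p = 0.0815 in each). The averaged change of -1.24 ± 0.24 passed (limma, adjusted p = 0.0173), and without both KO replicate 2 arrays it was -1.09 ± 0.13 (limma, adjusted p = 0.0141).

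Ly6c1 measured 7.47 and 7.85 on the KO stimulated arrays and 7.69 and 7.67 on the WT stimulated arrays, against 6.34 and 6.77 on the KO medium arrays and 6.13 and 6.18 on the WT medium arrays. All stimulated arrays were above all medium arrays, and both KO medium arrays were above both WT medium arrays. The effect of stimulation was 1.11 ± 0.19 in KO (limma, adjusted p = 0.0233) and 1.52 ± 0.19 in WT (limma, adjusted p = 0.00987). Averaged over genotypes it came to 1.31 ± 0.13 (limma, adjusted p = 0.00209), and without both KO replicate 2 arrays 1.33 ± 0.08 (limma, adjusted p = 0.00378). A second Ly6c1 probe measured 3.71 and 4.48 on the KO stimulated arrays and 4.02 and 3.88 on the WT stimulated arrays, against 3.47 and 4.41 on the KO medium arrays and 3.30 and 3.39 on the WT medium arrays. In this second probe the KO medium replicate 2 array lay above 3 of the stimulated arrays, and its averaged change of 0.38 ± 0.26 did not pass in a fit over all 37255 probes (limma, adjusted p = 0.344). By itself it changed by 0.15 in KO and 0.60 in WT (limma, adjusted p = 0.86 and 0.326). With the mean of all probes of the gene, Ly6c1 changed by 0.63 in KO and 1.06 in WT, and neither passed (limma, adjusted p = 0.216 and 0.0635). The probes differed, and because Ly6c1 has a near-identical paralog, Ly6c2, for which no probe is named here, the rise is uncertain as to which of these genes it belongs to.

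Dapl1 measured 3.76 and 3.09 on the KO stimulated arrays and 3.63 and 3.90 on the WT stimulated arrays, against 5.05 and 4.46 on the KO medium arrays and 4.99 and 5.13 on the WT medium arrays. All stimulated arrays were below all medium arrays, and within each KO condition replicate 2 was the lower array. The log2 fold change was -1.33 ± 0.29 in KO (limma, adjusted p = 0.04505) and -1.30 ± 0.29 in WT (limma, adjusted p = 0.0430). Averaged over genotypes it was -1.32 ± 0.20 (limma, adjusted p = 0.0081), and without both KO replicate 2 arrays -1.30 ± 0.12 (limma, adjusted p = 0.00848). Its promoter window is the one above with the FOXO letters upstream of the start.

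Tcf7, which encodes TCF-1, measured 4.64 and 3.97 on the KO stimulated arrays and 4.41 and 4.42 on the WT stimulated arrays, against 5.32 and 5.13 on the KO medium arrays and 5.11 and 5.22 on the WT medium arrays. The stimulated arrays were all lower, and the WT pairs lay close together. Stimulation changed the signal by -0.92 ± 0.22 in KO and -0.75 ± 0.22 in WT, and neither passed (limma, adjusted p = 0.0637 and 0.0890). The averaged change was -0.83 ± 0.16 (limma, adjusted p = 0.0154), and without both KO replicate 2 arrays -0.71 ± 0.08 (limma, adjusted p = 0.0143). A second Tcf7 probe measured 2.12 and 1.38 on the KO stimulated arrays and 1.70 and 1.83 on the WT stimulated arrays, against 3.02 and 2.71 on the KO medium arrays and 2.72 and 3.02 on the WT medium arrays. Its groups did not overlap either, and its averaged change was -1.11 ± 0.19 (limma over all probes, adjusted p = 0.0150).

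Lef1, which encodes LEF-1, measured 5.04 and 4.27 on the KO stimulated arrays and 4.84 and 5.11 on the WT stimulated arrays, against 6.03 and 5.29 on the KO medium arrays and 5.87 and 5.98 on the WT medium arrays. The lowest medium array was KO replicate 2, and it still lay above the highest stimulated array. Its log2 fold change was -1.0015 ± 0.33 in KO and -0.94 ± 0.33 in WT, and neither passed (limma, adjusted p = 0.127 and 0.123). The averaged change was -0.97 ± 0.23 (limma, adjusted p = 0.0309), and without both KO replicate 2 arrays -0.97 ± 0.12 (limma, adjusted p = 0.0148). Tcf7 and Lef1 both fell in the averaged comparison.

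Satb1, the chromatin organiser, measured 6.43 and 6.08 on the KO stimulated arrays and 6.47 and 6.35 on the WT stimulated arrays, against 5.72 and 5.20 on the KO medium arrays and 5.34 and 5.76 on the WT medium arrays. All stimulated arrays were above all medium arrays, the opposite order to that of the 5 genes that fell. The stimulation effect was 0.79 ± 0.24 in KO and 0.86 ± 0.24 in WT, and neither passed (limma, adjusted p = 0.105 and 0.0753). The averaged change was 0.82 ± 0.17 (limma, adjusted p = 0.0197), and without both KO replicate 2 arrays 0.78 ± 0.15 (limma, adjusted p = 0.0364).

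**Figure D2:**
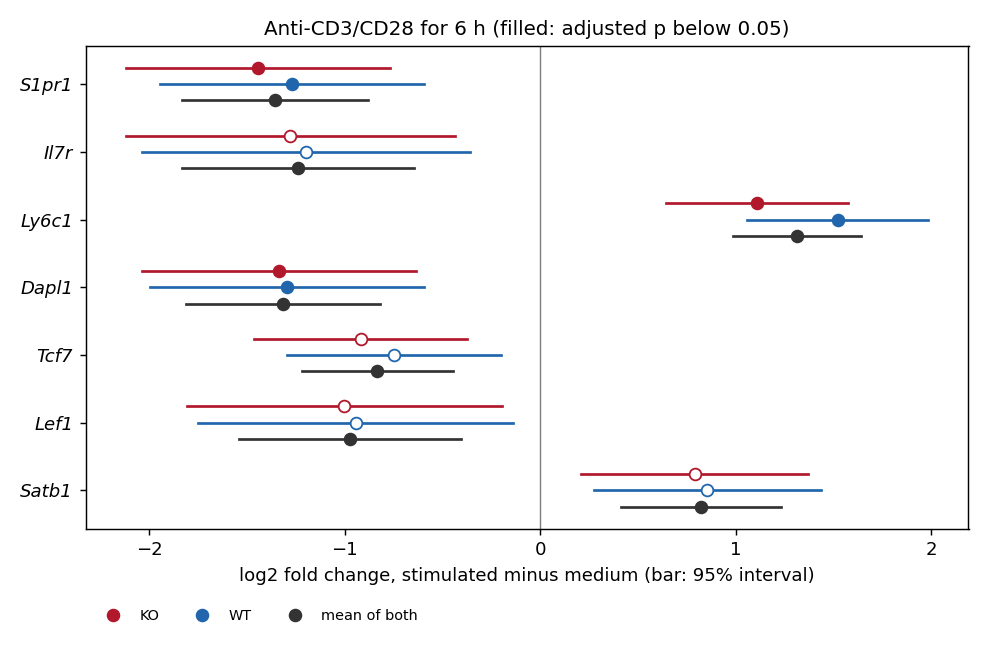
Log2 fold change, stimulated minus medium (x axis), of the 7 genes in KO, in WT and averaged over both genotypes, with 95% intervals of the limma fit and filled points where the adjusted p was below 0.05. No interval spans 0. S1pr1, Dapl1 and Ly6c1 are filled in KO and in WT, and all 7 genes are filled in the average.

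Within a genotype, 2 of the 7 were called lower and 1 higher in KO, where 2.27% of all genes were called lower and 5.85% higher. The same counts were reached in WT, where 3.84% of all genes were called lower and 6.42% higher. In KO the calls of S1pr1 and Dapl1 were lost without KO stimulated replicate 2, without either KO medium array or without any 1 of the 4 WT arrays, with adjusted p between 0.0695 and 0.162 and log2 fold changes between -1.63 and -0.9996. The call of Ly6c1 in KO was lost without KO stimulated replicate 2 (0.92), KO medium replicate 1 (0.89) or any WT array, with adjusted p between 0.0571 and 0.0990. Without both KO replicate 2 arrays, S1pr1 changed by -1.24 (limma, adjusted p = 0.0628), Dapl1 by -1.30 (limma, adjusted p = 0.0612) and Ly6c1 by 1.13 (limma, adjusted p = 0.0366) in KO. In the same fit Il7r changed by -0.99, Tcf7 by -0.68, Lef1 by -0.99 and Satb1 by 0.71 in KO, and none of these passed (limma, adjusted p = 0.112, 0.105, 0.0962 and 0.231). In WT the calls of S1pr1 and Dapl1 were lost without any 1 of the 4 WT arrays, with adjusted p between 0.131 and 0.2245, and that of S1pr1 also without either KO medium array (adjusted p = 0.0585). The call of Ly6c1 in WT was lost without either WT stimulated array or without WT medium replicate 1, with adjusted p between 0.0722 and 0.0806 and log2 fold changes between 1.497 and 1.528.

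In the averaged comparison S1pr1, Ly6c1 and Dapl1 kept their calls with each 1 of the 8 arrays left out. Without WT stimulated replicate 1, Il7r, Tcf7, Lef1 and Satb1 did not pass (adjusted p = 0.0680, 0.0620, 0.106 and 0.0768), nor did they without WT stimulated replicate 2 (0.0529, 0.0591, 0.0753 and 0.0621) or without WT medium replicate 1 (0.0694, 0.0546, 0.0890 and 0.0673), by limma. Without KO medium replicate 1, Il7r, Tcf7 and Lef1 did not pass (adjusted p = 0.0542, 0.0502 and 0.0703), and without WT medium replicate 2, Tcf7 and Lef1 did not (0.0509 and 0.0844), by limma. Lef1 also lost its call without KO stimulated replicate 2 (limma, adjusted p = 0.0657). In a bulk RNA sample, fewer cells of a type and less RNA per cell cannot be told apart. When each array was centred on the mean of the 15 T cell markers, all 7 averaged changes passed, between -1.27 for S1pr1 and 1.40 for Ly6c1. In that setting Ly6c1 in KO did not pass (1.18, limma adjusted p = 0.114) and Satb1 in WT did (0.95, limma adjusted p = 0.0380). Members called in that setting numbered 2 in KO and 4 in WT. Before centring, 2 of the 15 markers were called higher and 1 lower in the averaged comparison, with a median of -0.21. The markers thus moved too, and the centring cannot separate cell number from RNA per cell.

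The other genes of each pathway moved in several directions. Of 25 genes of lymph node homing and quiescence, 8 were lower and 2 higher in the averaged comparison, with a median log2 fold change of -0.49. In that comparison 12.3% of all genes were called lower and 12.2% higher. Tob1, an antiproliferative factor of resting T cells, fell by 1.51 ± 0.21 (limma, adjusted p = 0.00536) and Usp28, a deubiquitinase, fell by 1.48 ± 0.25 (limma, adjusted p = 0.0106). Ccr7, the chemokine receptor for entry into lymph nodes, fell by 0.64 ± 0.13 (limma, adjusted p = 0.0209). Klf2, a transcription factor that drives S1pr1 in T cells, changed by -0.66 ± 0.19 (limma, adjusted p = 0.0527) and Foxo1 by -0.40 ± 0.12 (adjusted p = 0.0587), and neither passed. Gfi1, a transcriptional repressor, was higher by 1.06 ± 0.15 (limma, adjusted p = 0.0055), and so was Slfn2, a quiescence factor, by 0.51 ± 0.12 (adjusted p = 0.0301). In KO alone and in WT alone 2 of the 25 were lower and 1 was higher. Of all genes, 2.27% were called lower in KO and 3.84% in WT, and 5.85% and 6.42% higher. When both KO replicate 2 arrays were left out, 11 were lower and 1 higher in the average; Klf2 then passed (-0.55, limma adjusted p = 0.0323) and Slfn2 did not (0.42, adjusted p = 0.0859).

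Of 19 measured genes of the sphingosine 1-phosphate pathway, 5 were lower and 1 higher, with a median of -0.32. The shares over all genes were 12.3% lower and 12.2% higher. In KO alone 0 of the 19 were lower and 1 was higher, where 2.27% and 5.85% of all genes were. In WT alone 1 was lower and 1 higher, where 3.84% and 6.42% of all genes were. The receptors S1pr4 and S1pr5 fell by 1.08 ± 0.25 and 1.04 ± 0.25 (limma, adjusted p = 0.0271 and 0.0317). Cd69, whose protein binds S1PR1 and takes it off the cell surface, measured 4.05 and 4.75 on the KO stimulated arrays and 4.27 and 4.21 on the WT stimulated arrays, against 1.74 and 1.79 on the KO medium arrays and 1.64 and 1.95 on the WT medium arrays. Cd69 rose by 2.54 ± 0.17 (limma, adjusted p = 0.000562), the opposite direction to S1pr1. The counts without both KO replicate 2 arrays were 5 lower and 2 higher, and S1pr5 no longer passed (-0.95, limma adjusted p = 0.0530).

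Of 20 measured genes of interleukin-7 signalling, other than the receptor itself, 12 were higher and 2 lower, with a median of 0.67. Over all genes the shares were 12.2% higher and 12.3% lower. Cish and Socs1, feedback inhibitors of cytokine signalling, rose by 3.18 ± 0.12 (limma, adjusted p = 9.17e-05) and 3.15 ± 0.13 (limma, adjusted p = 0.000101), and Bcl2, which protects from cell death, rose by 2.23 ± 0.13 (limma, adjusted p = 0.000327). The genes that fell were Jak1, a kinase of the receptor, by 0.59 ± 0.14, and Pik3r1, a regulatory subunit of PI3K, by 0.57 ± 0.11 (limma, adjusted p = 0.0293 and 0.0168). Il2rg, the chain that pairs with IL7R, changed by 0.39 ± 0.12 and did not pass (limma, adjusted p = 0.0569). Several of these genes also respond to other cytokines. Leaving out both KO replicate 2 arrays gave 11 higher and 2 lower.

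Of 22 measured partners and targets of TCF-1 and LEF-1, 2 were higher and 5 lower, with a median of -0.07. For this list and the next, the shares over all genes were 12.2% higher and 12.3% lower. In KO alone 2 of the 22 were higher and 0 lower, where 5.85% and 2.27% of all genes were. In WT alone 2 were higher and 1 lower, where 6.42% and 3.84% of all genes were. Myc, a growth regulator, rose by 3.77 ± 0.18 and Eomes, a T-box factor of effector and memory cells, rose by 1.65 ± 0.10 (limma, adjusted p = 0.000181 and 0.000323). Id3, an inhibitor of E proteins, fell by 0.82 ± 0.12 and Nlk, a kinase, fell by 0.70 ± 0.14 (limma, adjusted p = 0.00651 and 0.0200). Tcf7l2, a paralog, changed by -0.15 ± 0.11 (limma, adjusted p = 0.359), and Tcf7l1 by -0.28 ± 0.12 (adjusted p = 0.149), and neither passed. The next list, called partners of Satb1 for short, also held other regulators of T cells, such as Foxp3 and Zbtb7b. Of its 12 measured genes, 3 were higher and 1 was lower, with a median of -0.01. The higher genes were Foxp3, the regulatory T cell factor, by 1.39 ± 0.09, Baz1a by 0.68 ± 0.14 and Kat2b by 0.61 ± 0.13. Zbtb7b was lower, at -0.43 ± 0.11. With both KO replicate 2 arrays left out, 2 partners and targets of TCF-1 and LEF-1 were higher and 3 lower, and 3 partners of Satb1 were higher and 0 lower, Zbtb7b being at -0.48 (limma, adjusted p = 0.0594).

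Of 17 measured Ly6 genes, 4 were higher and 1 lower, with a median of 0.04. For this list and the next, the shares over all genes were 12.2% higher and 12.3% lower. Ly6a, which encodes Sca-1, measured 6.41 and 6.78 on the KO stimulated arrays and 6.62 and 6.61 on the WT stimulated arrays, against 4.25 and 4.43 on the KO medium arrays and 3.96 and 4.06 on the WT medium arrays. Its log2 fold change was 2.43 ± 0.11 (limma, adjusted p = 0.000167), with Ly6f at 2.52 ± 0.25 (adjusted p = 0.00194), in the same direction as Ly6c1. Ly6m was the gene that fell, by 0.40 ± 0.08 (limma, adjusted p = 0.0219). These genes are closely related in sequence, so their signals may not be separate. Among 19 markers of effector and memory cells, 8 were higher and 2 lower, with a median of 0.25. They included Irf4 at 4.05 ± 0.10 and Il2ra at 3.70 ± 0.17 (limma, adjusted p = 3.7e-05 and 0.000179), and the genes that fell were Klrg1 and Cxcr3, by 0.79 ± 0.12 each (adjusted p = 0.00847 and 0.00768), while Cd44 changed by 0.25 ± 0.11 and did not pass (adjusted p = 0.158). In the fit without both KO replicate 2 arrays, 3 Ly6 genes were higher and 0 lower, Ly6m being at -0.37 (limma, adjusted p = 0.0505), and 8 effector and memory markers were higher and 3 lower.

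**Figure D3:**
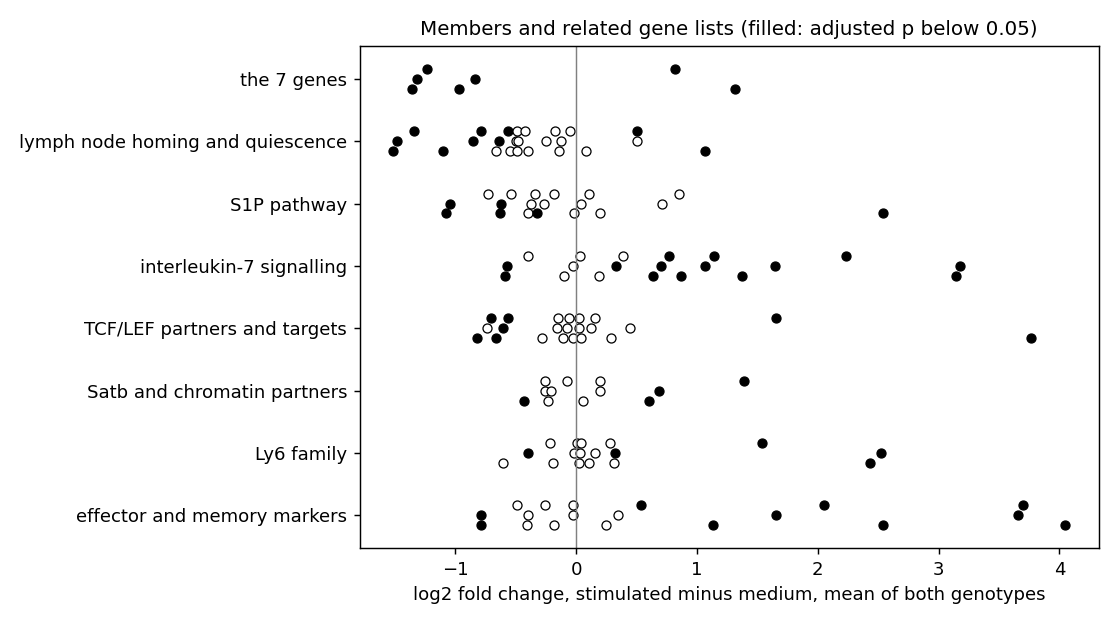
Log2 fold change, stimulated minus medium averaged over genotypes (x axis), of the 7 genes and of the measured genes of 7 related lists (rows), each point 1 gene and filled where the adjusted p was below 0.05. The median was -0.49 for homing and quiescence genes and 0.67 for interleukin-7 signalling, whose highest points are Cish and Socs1.

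The 5 genes that fell tracked each other over the 8 arrays. Their Pearson correlations with one another lay between 0.94 and 0.99, while Satb1 had -0.56 to -0.71 with them. This is a description over 8 arrays of 2 conditions and 2 genotypes, which share the stimulation step and the slide, and no test was made. The named gene with the profile most like S1pr1 was Fam78a (r = 0.998), for Il7r Tbl1xr1 (0.999), for Ly6c1 Ms4a6d (0.998), for Dapl1 Tob1 (0.998), for Tcf7 Rnf125 (0.993), for Lef1 Trpm4 (0.998) and for Satb1 Ppp2r2a (0.991). Likeness at this level was common, with between 466 and 1779 genes per member at r above 0.9.

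No member was called between KO and WT, in stimulated cells, in medium or averaged over conditions, and none in the difference of the stimulation responses between genotypes. Members called numbered 0 in each of these 4 comparisons. Of all genes, 0.0198% were called in stimulated cells and 0.00661% in each of the other 3. An unadjusted p under 0.05 was reached by 0 members in each (limma). Of the 15138 genes tested, 762 reached it in stimulated cells and 865 in medium. It was reached by 1239 averaged over conditions and by 459 in the difference of the responses. The only gene called in medium and in the average was Lsp1. These p-values do not show that the genotypes were alike, so the intervals follow.

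In stimulated cells, KO minus WT was -0.35 for S1pr1 (95% interval -1.02 to 0.33), -0.36 for Il7r (-1.20 to 0.48), -0.34 for Dapl1 (-1.04 to 0.36) and -0.32 for Lef1 (-1.13 to 0.48). Tcf7 gave -0.11 (-0.65 to 0.44), Satb1 -0.15 (-0.74 to 0.43) and Ly6c1 -0.02 (-0.48 to 0.44). All 7 differences were below 0 there, with 0 of 7 genes not overlapping between KO and WT arrays, where 38% of all genes do not overlap. Without both KO replicate 2 arrays 5 of the 7 were above 0 in stimulated cells: S1pr1 at 0.04, Il7r at 0.15, Tcf7 at 0.23, Lef1 at 0.06 and Satb1 at 0.02. Dapl1 was then at -0.0058 and Ly6c1 at -0.21. In medium KO minus WT was 0.39 for Ly6c1 (-0.07 to 0.86, limma adjusted p = 0.736), which alone of the 7 did not overlap, where 34.2% of all genes do not. The other medium differences lay between -0.30 (Dapl1) and 0.06 (Tcf7). The medium differences without both KO replicate 2 arrays ran from -0.06 (Il7r) to 0.18 (Ly6c1). Averaged over conditions, where 3.46% of all genes did not overlap, none of the 7 was apart, and differences ran from -0.32 (Il7r and Dapl1) to 0.19 (Ly6c1).

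The response to stimulation differed between KO and WT by -0.41 for Ly6c1 (95% interval -1.07 to 0.24), by -0.18 for S1pr1 (-1.13 to 0.78) and by -0.04 for Dapl1 (-1.03 to 0.95), with adjusted p = 0.9999 for each of the 7 (limma). These intervals are wide against the stimulation effects themselves. Without both KO replicate 2 arrays the difference was -0.39 for Ly6c1, 0.03 for S1pr1, 0.21 for Il7r and -0.0018 for Dapl1, and 0 members were called.

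**Figure D4:**
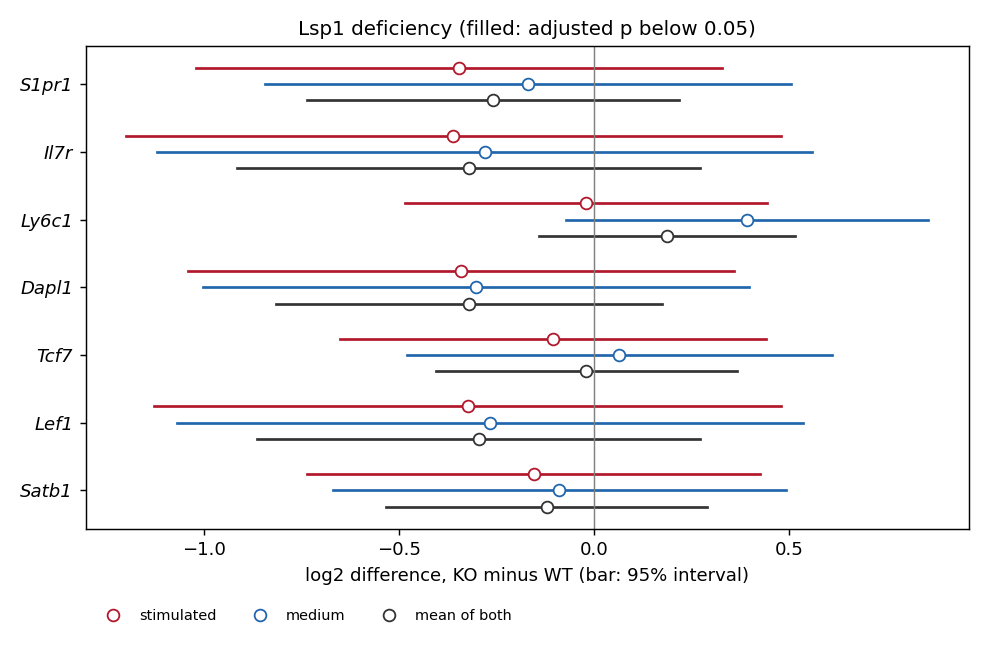
Log2 difference, KO minus WT (x axis), of the 7 genes in stimulated cells, in medium and averaged over both, with 95% intervals of the limma fit. No point is filled, since none reached an adjusted p below 0.05, and every interval spans 0.

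The mostly negative KO minus WT values were not present without the KO replicate 2 arrays. The KO stimulated replicate 2 minus replicate 1 value was -0.78 for S1pr1, -1.02 for Il7r, -0.67 for Dapl1, -0.67 for Tcf7, -0.76 for Lef1, -0.35 for Satb1 and 0.38 for Ly6c1. In KO medium it was -0.37, -0.43, -0.60, -0.19, -0.74, -0.52 and 0.43 for the same genes in the same order. The 2 WT arrays of a condition differed by at most 0.42 in any of the 7. Without both KO replicate 2 arrays, KO minus WT averaged over conditions was 0.03 for S1pr1, 0.04 for Il7r, -0.02 for Ly6c1, 0.08 for Lef1, 0.10 for Satb1 and 0.19 for Tcf7, and Dapl1 was at -0.0049. The T cell marker sum was also lower on these arrays, as given above, and the neutrophil, erythroid and cell cycle lists were higher: the median replicate 2 minus replicate 1 gap in KO was 3.76 stimulated and 4.29 in medium for the 13 neutrophil genes, 2.84 and 2.20 for 12 erythroid and platelet genes, and 1.44 and 1.14 for 10 cell cycle genes. For 13 monocyte, macrophage and dendritic cell genes this gap was 0.36 stimulated and 0.62 in medium, with 11 of 13 higher on replicate 2 in each. Ly6c1 alone of the 7 was higher on replicate 2 in both KO conditions. What part these cells had in the members' gaps was not tested.

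**Figure D5:**
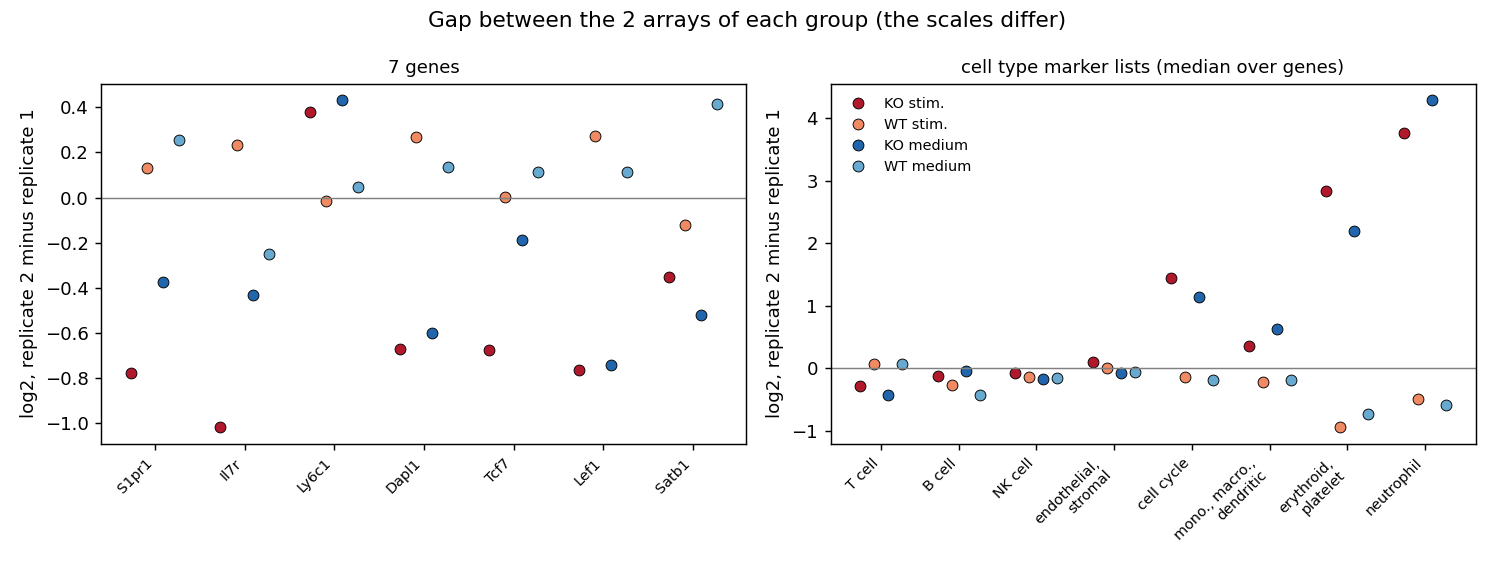
Log2 gap, replicate 2 minus replicate 1 (y axis), within each of the 4 groups, for the 7 genes (left) and for the medians of 8 marker lists (right, different scale). In the KO groups S1pr1, Il7r, Dapl1, Tcf7, Lef1 and Satb1 lie below 0 and Ly6c1 above, and neutrophil markers reach 3.76 and 4.29.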

How the data were processed

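Each of 8 samples, 2 per group, was measured on its own one-colour (Cy3) Agilent array. Per the file headers, the deposited intensity values are processed signals from Agilent Feature Extraction 10.7.1.1, after that program's background subtraction, on a linear scale. The deposited value table of the series equals the scanner's median intensity (0 of 62976 values differing per array). Probe names came from the files' accessions, matched to RefSeq GRCm38.p6, while the headers name build mm9, so probe coordinates are not given.

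Control and outlier spots were left out, log2 signal minus each array's 75th percentile was computed, and a probe was kept if at least 1 group had both arrays well above background. With 1 probe per gene, 15138 genes were tested. The normexp alternative used median spot and background signals in place of the planned mean spot signals, which were not used here. Tests used limma 3.58.1 in R 4.3.3 with 4 residual degrees of freedom, two-sided p-values, and Benjamini-Hochberg adjustment at 0.05. The stimulation comparisons were tested on simulated data with known changes. Noise there was independent between arrays, with 1 spread per gene in all groups. In the data, deviations of same-numbered KO arrays correlated at 0.74. The root mean square spread was 0.45 and 0.43 in KO, stimulated and medium, against 0.25 and 0.25 in WT. The simulation does not cover these features. An exact permutation test of 2 against 2 arrays cannot go below 0.333. The 7 members, the gene lists and the promoter motifs were chosen with earlier results of these data known. Genes named outside the members are the 2 largest called in each direction of a list and those a statement needs, chosen with their values known. The number of arrays limits the precision, and 29625 probes were not named here.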

Additional observations from a re-analysis of the deposited data

How the results depend on the processing

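Of 7 members, 3 were called on stimulation in WT. The count was 1 with median centring or with all probes tested, and 7 with array weights, with only the groups compared, or with a replicate block within genotype. In KO it was 3, and 1 without a filter on dim probes, with array weights or without both KO replicate 2 arrays, 0 with only the groups compared, and 7 with the replicate block within genotype. Leaving out 1 array at a time gave 0 to 5 in WT, 0 to 5 in KO and, against 7 averaged over genotypes, 3 to 7. Fewer arrays leave fewer residual degrees of freedom, and where a group was left with 1 array, it was assumed to vary like the others. The cause of the other shifts was not tested. Every member kept the sign of its stimulation effect in every alternative run, and 0 members were called between genotypes in any of them. Signs of uncalled genotype differences were not counted as reversals.

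Genes called on stimulation numbered 1553 in WT, against 3003 without the filter, 3462 with array weights (1668 higher, 1794 lower), 2713 with only the groups compared, 3522 with the block within genotype, 720 centred on T cell markers, and 199 at the lowest with 1 array left out. In KO they numbered 1230, against 702 with array weights, 38 with only the groups compared, 2776 with the block, 635 centred on T cell markers, 436 without both KO replicate 2 arrays, and 366 at the lowest with 1 array left out. Averaged, 3713 were called, against 6448 probes with all probes tested, 5938 with the block, 2298 centred on T cell markers, and 1444 at the lowest with 1 array left out. Between genotypes, counts of 1 in medium, 3 stimulated and 1 averaged ranged over 0 to 3, 0 to 13 and 1 to 19. Centring on T cell markers was added after seeing the data. Deviations of same-numbered arrays correlated at 0.74 between KO stimulated and KO medium, at 0.16 between the WT groups and from -0.24 to -0.06 between genotypes. Within a genotype same-numbered arrays thus deviated together, but the labels do not say what a number marks and there are 2 numbers per genotype, so the block was kept as an alternative. Slide and scan could not be fitted as a block, since all arrays share 1 of each.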
